A study of Arabidopsis thaliana with 48 samples.

Results

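Dark-grown seedlings of Arabidopsis thaliana (accession Col-0) that had received a short pulse of mixed UV-A and UV-B light were compared with seedlings that had received UV-A alone, 4 h after the pulse. The comparison rests on 6 of the 48 Affymetrix ATH1 arrays of the study, 3 after the UV-A/B pulse and 3 after the UV-A pulse, chosen by the code in the sample titles. All plants were wild type. Seeds were stratified for 48 h at 8 °C, induced to germinate with 2 h of red light, and kept at 22 °C without light for 94 h. They were then given 5 min of UV-A/B or UV-A light, or no light, and were harvested after a further 4 h of darkness. For the UV-A group the labels name a lamp with a peak at 310 nm, an irradiance of 7 W per m2 and a cut-off filter whose half-maximal transmission lies at 327 nm. For the UV-A/B group at 4 h the labels give the 5 min pulse but not its filter or irradiance. A 307 nm filter at 7 W per m2 is stated only for replicate 2 of the UV-A/B group harvested at 45 min. The 3 dark arrays of the same harvest show the level without a pulse, and 1 of them (replicate 1) was germinated under green light per its label. Further groups of the study were given a red pulse or red, far-red, blue or white light. They enter the shared fit, and their levels at 4 h are set beside those of the named genes. Each RNA came from whole seedlings, mainly hypocotyl and cotyledons, so that a lower signal from fewer cells of a type and one from less RNA per cell cannot be told apart. The labels do not say whether replicates came from separate cultures, so the p-values cover only the variation among the arrays, part of which may be technical.

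UV-A light is absorbed in plants mainly by cryptochromes and phototropins, whereas UV-B is absorbed by the photoreceptor UVR8. On absorbing UV-B, UVR8 dimers split into monomers that bind the ubiquitin ligase COP1, which lets the transcription factors HY5 and its homologue HYH accumulate. HY5 and HYH switch on genes for flavonoids and sinapate esters, the compounds that screen ultraviolet light in the epidermis. UV-B can also damage DNA and raise reactive oxygen species, and plants answer such stress with glutathione-dependent enzymes, glycosyltransferases, transporters and chaperones.

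Values are MAS5 signals (a background-corrected brightness per probe set, scaled to a common level per array), and a difference is a log2 difference of signal + 1, UV-A/B minus UV-A. Of 15777 probe sets tested, 1379 (8.74%) were called at an adjusted p under 0.05 in limma, 751 higher after UV-A/B (4.76%) and 628 lower (3.98%). More than 2-fold differences were found for 205 called probe sets that were higher and for 49 that were lower. Called differences lay between -2.26 and 5.72, where the upper end belongs to AT2G04050, whose UV-A signals are near the floor (2.58 with a pseudocount of 16), and the median over all probe sets tested was -0.02. The 3 UV-A/B arrays did not overlap the 3 UV-A arrays for 3327 probe sets (21.1%), of which 1294 were also called. Without UV-A/B replicate 2, 392 probe sets were called lower in place of 628. A fit blocked on replicate number called 961 probe sets higher and 952 lower, nearly even numbers. A fit on these 6 arrays alone called 472 probe sets, 364 higher and 108 lower. Signals of arrays of the same group correlated across probe sets at r = 0.9517 to 0.9733, and those of different groups at 0.9296 to 0.9606. Of the called probe sets 664 stand for 1 gene, and 701 are not listed in the annotation used here and stay unnamed. Signals under about 26 to 28, the 40th percentile of these arrays, are low, and the size of a difference that starts there depends on the pseudocount.

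**Figure D1:**
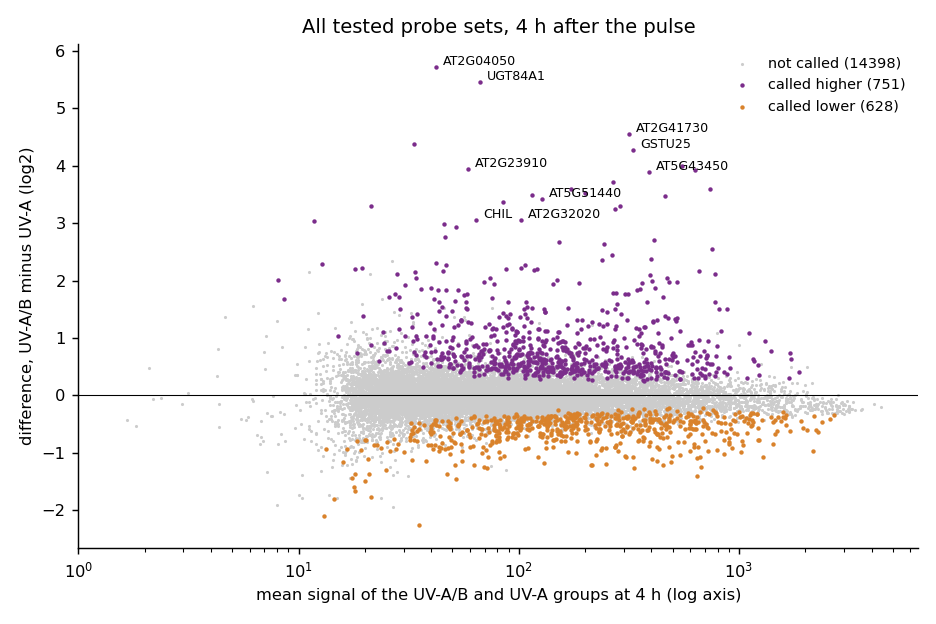
Difference between UV-A/B and UV-A at 4 h (log2, vertical axis) against the mean signal of both groups (log axis) for the 15777 probe sets tested, each a point. The 751 probe sets called higher spread farther from 0 than the 628 called lower, with the highest points (AT2G04050 and UGT84A1) resting on UV-A signals near the floor. Labels name the leading rises.

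Tissue markers were set beside these values. The summed signal of 3 measured genes typical of dark-grown cotyledons and hypocotyls (RCA, PORB and ICL) lay between 2044.5 and 3969.7 in the UV-A/B arrays and between 2409.0 and 3813.1 in the UV-A arrays. RCA and ICL also differed between the pulses and darkness, so this sum does not follow tissue content alone. Mean signals after UV-A/B, after UV-A and in darkness were 1186.3, 1269.3 and 491.4 for RCA. For ICL they were 619.5, 692.4 and 1243.8. For 4 root markers, led by PYK10, the sums were 3046.2 to 3341.7 and 3366.7 to 4053.1, so that the UV-A/B arrays lay just below all UV-A arrays. No tested marker was called, the smallest adjusted p of a root marker being 0.525 for PYK10. EXPA7, which marks root hairs, was near the floor (4.4 to 11.9 and 5.1 to 11.8). The 2 measured seed markers were low, with sums of 57.9 to 62.6 and 63.3 to 68.4. The part of such shifts in the results was not tested.

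Of the list of UV-B and light signalling genes only HYH and AT3G52740 had a probe set in the annotation used here, and both rose. HYH, the HY5 homologue that acts downstream of UVR8 and cryptochromes, gave signals of 98.5, 69.9 and 75.3 in the UV-A/B arrays, 10.7, 10.1 and 12.7 in the UV-A arrays, and 9.8, 5.9 and 1.2 in darkness. Every UV-A/B array was therefore above every UV-A and dark array. The log2 difference was 2.75 ± 0.38 (SE, adjusted p = 1.26e-06), and 1.83 with a pseudocount of 16. AT3G52740 differed by 3.04 ± 0.63 (SE, adjusted p = 0.000866), but from signals of 19.8 to 22.6 against 1.1 to 3.7, all under the 40th percentile, and with a pseudocount of 16 the difference was 1.07.

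Of the flavonoid and phenylpropanoid genes 8 were tested, of which 3 rose and none fell, against 4.76% of all probe sets called higher. Their median difference was 0.46 against -0.02 over all genes. All gene lists used here were chosen with earlier results of these data known, so the counts of called members give no support of their own. UGT84A1, a glucosyltransferase that forms glucose esters of hydroxycinnamates such as sinapate, had signals of 116.3, 128.7 and 149.1 after UV-A/B. Its signals were 2.2, 1.6 and 2.2 after UV-A and 1.9, 1.8 and 2.5 in darkness. The gene was thus near the floor in all 6 arrays without UV-B, and its difference was 5.46 ± 0.62 (SE, adjusted p = 2.28e-08), or 3.03 with a pseudocount of 16. In the other conditions at 4 h the mean of UGT84A1 was at most 12.6. At this harvest it thus passed the filter on low signals only through the UV-A/B arrays. Its p-value and its place in the count therefore give no separate support. CHIL, a chalcone isomerase-like protein that raises the yield of flavonoid synthesis, gave 130.8, 138.4 and 76.6 after UV-A/B against 14.5, 17.3 and 7.7 after UV-A and 4.2, 4.1 and 5.1 in darkness. The UV-A/B arrays did not overlap the others, and the difference was 3.06 ± 0.44 (SE, adjusted p = 2.76e-06), or 2.15 with a pseudocount of 16. In both groups replicate 3 was the lowest array for CHIL.

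UGT78D2, which attaches glucose to the 3 position of flavonols and anthocyanidins, was among the most even of the rises. Its signals were 259.9, 267.8 and 263.5 after UV-A/B, 41.2, 38.2 and 42.9 after UV-A, and 27, 32.1 and 33.6 in darkness. The group means stood 6.47-fold apart, and the difference was 2.67 ± 0.15 (SE, adjusted p = 4.42e-17). The remaining 5 members did not pass the test. DFR, which makes leucoanthocyanidins on the anthocyanin branch, had signals of 30.1 ± 8.24 (SD, n = 3) and 29 ± 4.53, a difference of 0.03 with a 95% interval of -0.39 to 0.45. UF3GT, which modifies anthocyanins, differed by 0.50 (0.04 to 0.96, adjusted p = 0.189).

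Of 35 tested glycosyltransferases 5 rose and none fell, against 4.76% of all probe sets called higher, with a median difference of 0.14. Besides UGT84A1 and UGT78D2, UGT87A2 rose from 107.0 ± 9.95 to 209.0 ± 48.8 (difference 0.94, adjusted p = 0.000953) and UGT74D1 from 118.3 ± 20.7 to 187.4 ± 45.7 (0.64, adjusted p = 0.00917). UGT76B1, which glucosylates isoleucic and salicylic acid, gave 636.3, 422.7 and 540.0 against 338.6, 194.7 and 483.8, so that the groups overlapped. Its difference of 0.73 had an adjusted p of 0.0479, and the call was lost without UV-A/B replicate 1 or 3 or UV-A replicate 1 or 2 (adjusted p 0.0791 to 0.414, and a difference of 0.38 without UV-A replicate 2).

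Glutathione transferases, which join glutathione to reactive compounds, held 4 rises and 1 fall among 10 tested genes, with a median difference of 0.03. Over all probe sets 4.76% were called higher and 3.98% lower. GSTU25, of the tau class, gave 560.5, 590.5 and 730.8 after UV-A/B, 28.3, 23.3 and 45.5 after UV-A, and 24.7, 22.3 and 22.2 in darkness. All UV-A/B arrays were far above the other 6 arrays, the means stood 19.4-fold apart, and the difference was 4.28 ± 0.25 (SE, adjusted p = 4.21e-16). GSTU22 gave 267.2, 227.2 and 287.8 against 130.6, 63.4 and 132.6, a difference of 1.32 ± 0.34 (SE, adjusted p = 0.00802). UV-A replicate 2 was the low array there, and without it the call was lost (0.97, adjusted p = 0.101). GSTU16 rose by 0.71 (adjusted p = 0.00369, and 0.0676 in the fit on the 6 arrays alone). GSTU28 rose by 0.77 (adjusted p = 0.028) and, with a pseudocount of 16, by 0.49. Its call was lost without UV-A/B replicate 1 or 2 or UV-A replicate 1 or 2 (adjusted p 0.0581 to 0.134). The fit on the 6 arrays alone lost it too (0.103). GSTF4, of the phi class, fell by 0.62 (adjusted p = 0.0428), and this value was not recomputed with arrays left out.

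Transporters of the MATE family, which export toxins and secondary metabolites, included 3 rises among 5 tested genes and no fall (4.76% of all probe sets rose). AT2G04050 gave 81.5, 95.8 and 73.5 after UV-A/B, 0.7, 0.6 and 0.5 after UV-A, and 0.8, 1.0 and 4.6 in darkness. Only the UV-A/B arrays were above the floor, and the difference was 5.72 ± 1.15 (SE, adjusted p = 0.000559), which became 2.58 with a pseudocount of 16. In the other conditions at 4 h the mean of AT2G04050 was at most 2.13. At this harvest it thus passed the filter on low signals only through the UV-A/B arrays. Its p-value and its place in the count therefore give no separate support. AT2G04070 is a close relative of AT2G04050, and a probe set may not fully tell their transcripts apart. It gave 60.2, 73.5 and 67.2 against 18.0, 25.5 and 23.9 (1.54 ± 0.31, adjusted p = 0.000505). In the other conditions at 4 h the mean of AT2G04070 was at most 22.5, a low signal. At this harvest it thus passed the filter mainly through the UV-A/B arrays. The p-value of AT2G04070 and its place in the count give no separate support either. AT1G71140 differed by 0.94 (adjusted p = 0.0239), a call lost without UV-A/B replicate 1 or 3 or UV-A replicate 2 (adjusted p 0.0731 to 0.244, and a difference of 0.59 without the last). The fit on the 6 arrays alone lost this call too (adjusted p = 0.162). AT1G66760 differed by 0.43 (adjusted p = 0.0835, or 0.0491 with the replicate number as a block) and AT1G33110 by 0.41 (adjusted p = 0.499). None of the 13 tested cytochrome P450 genes, another family of detoxification, was called, with differences between -0.26 and 0.36.

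Genes used as markers of oxidative stress and of mitochondrial dysfunction rose in 5 of 11 tested cases, against 4.76% of all probe sets. None was called lower, and the median difference was 0.60. AT2G41730 gave 621.7, 608.6 and 594.4 after UV-A/B against 26.5, 22.2 and 26 after UV-A and 32.2, 38.4 and 30.3 in darkness. All UV-A/B arrays were far above the other 6 arrays, and the difference was 4.56 ± 0.37 (SE, adjusted p = 5.76e-12), or 3.93 with a pseudocount of 16. AT2G32020 gave 183.1, 181.4 and 184.8 against 20.2, 21.2 and 22.5 (3.05 ± 0.31, adjusted p = 2.37e-09, and 2.42 with a pseudocount of 16), and AT2G21640 114.7, 127.8 and 116.6 against 33.8, 28.9 and 23.3 (2.04 ± 0.40, adjusted p = 0.000492). In darkness their mean signals were 25.1 ± 6.55 and 23.3 ± 5.20 (SD, n = 3), close to those after UV-A. NDB2, an NAD(P)H dehydrogenase on the outer face of the inner mitochondrial membrane that bypasses complex I, gave 180.1, 204.4 and 198.6 against 65.9, 69.9 and 74.6 (1.46 ± 0.13, adjusted p = 5.27e-11).

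The respiratory genes were put together after their values had been seen, and so give no support of their own. Of 9 tested members 5 were called, all higher, against 4.76% of all probe sets called higher. SDH2-1, the iron-sulfur subunit of succinate dehydrogenase, gave 1359.3, 1210.4 and 1342.3 after UV-A/B against 480.9, 396.4 and 503.5 after UV-A and 398.7, 425.0 and 422.5 in darkness. SDH1-1, the flavoprotein subunit of the same enzyme, gave 557.7, 475.6 and 509.8 against 236.7, 229.0 and 208.4. Neither gene's UV-A/B arrays overlapped the UV-A arrays, and the differences were 1.51 ± 0.11 (SE, adjusted p = 2.45e-13) and 1.19 ± 0.13 (SE, adjusted p = 5.84e-09). For SDH2-2, the second gene of the iron-sulfur subunit measured, the difference was 0.27 (0.07 to 0.48, adjusted p = 0.0955). CYTC-2 rose by 1.1 (adjusted p = 4.61e-05) and CYTC-1 by 0.37 (adjusted p = 0.0122), both encoding the electron carrier cytochrome c.

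Thiol and ascorbate reductases, also grouped after their values had been seen, held 3 rises among 14 tested genes (4.76% of all probe sets rose). Their median was 0.04. GR1, a glutathione reductase that regenerates reduced glutathione with NADPH, gave 1216.8, 1344.3 and 1237.9 after UV-A/B, 285.0, 238.1 and 359.4 after UV-A, and 217.3, 240.9 and 231.7 in darkness. The UV-A/B arrays did not overlap the others, and GR1 differed by 2.12 ± 0.12 (SE, adjusted p = 3.63e-16). The gene labelled GR, the other glutathione reductase, differed by 0.20 (-0.02 to 0.43, adjusted p = 0.314). MSRB6, which reduces oxidised methionine in proteins, gave 740.5, 613.7 and 919.5 against 179.2, 152.0 and 212.9 (2.05 ± 0.21, adjusted p = 2.01e-09). Dark arrays held 41.4, 24.8 and 30.4, so MSRB6 was also higher after UV-A than in darkness. MSRB5 differed by -0.13 (-0.42 to 0.16). ATMDAR2, a monodehydroascorbate reductase, rose by 0.69 (adjusted p = 2.8e-06).

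Among heat shock and chaperone genes 3 of 11 tested members rose (against 4.76% of all probe sets) and none fell, with a median of 0.16. AT5G51440, a member of the small heat shock proteins of that list, gave 233.5, 222.8 and 245.3 after UV-A/B against 17.4, 22.2 and 23.9 after UV-A and 13.9, 21.3 and 10.1 in darkness. The UV-A/B arrays did not overlap the others (3.42 ± 0.46, adjusted p = 6.9e-07, and 2.75 with a pseudocount of 16). AT2G20560 and AT3G09440 rose by 0.85 and 0.60 (adjusted p = 0.019 and 0.0122). Those 2 calls were lost without UV-A replicate 2, and also without UV-A/B replicate 1 for AT2G20560 (adjusted p 0.103 to 0.134) and UV-A/B replicate 3 for AT3G09440 (adjusted p 0.0655 to 0.107). In the fit on the 6 arrays alone both were lost too (0.07 and 0.0917). ATHSP22.0, another small heat shock protein, gave 52.4 ± 6.04 and 48.6 ± 3.16 (SD, n = 3), a difference of 0.10 (-0.37 to 0.58).

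The 15 largest rises among called genes that did not overlap between groups and reached a mean signal of 100 ran from 2.04 to 5.46. Beside those already given they held AT2G23910 (3.94, or 2.47 with a pseudocount of 16), AT5G43450, AT1G06000 (2.45), AT3G57020 (2.37) and AT3G56290 (2.09), which the annotation names by locus only. AT5G43450 had 707.7, 831.7 and 651.9 after UV-A/B, 46.2, 52.8 and 46 after UV-A, and 29.8, 49.2 and 35.6 in darkness. This 15.1-fold ratio of means had the smallest adjusted p of the named genes (4.79e-19), with a difference of 3.89 ± 0.18 (SE). None of the 15 calls was lost in any alternative.

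**Figure D2:**
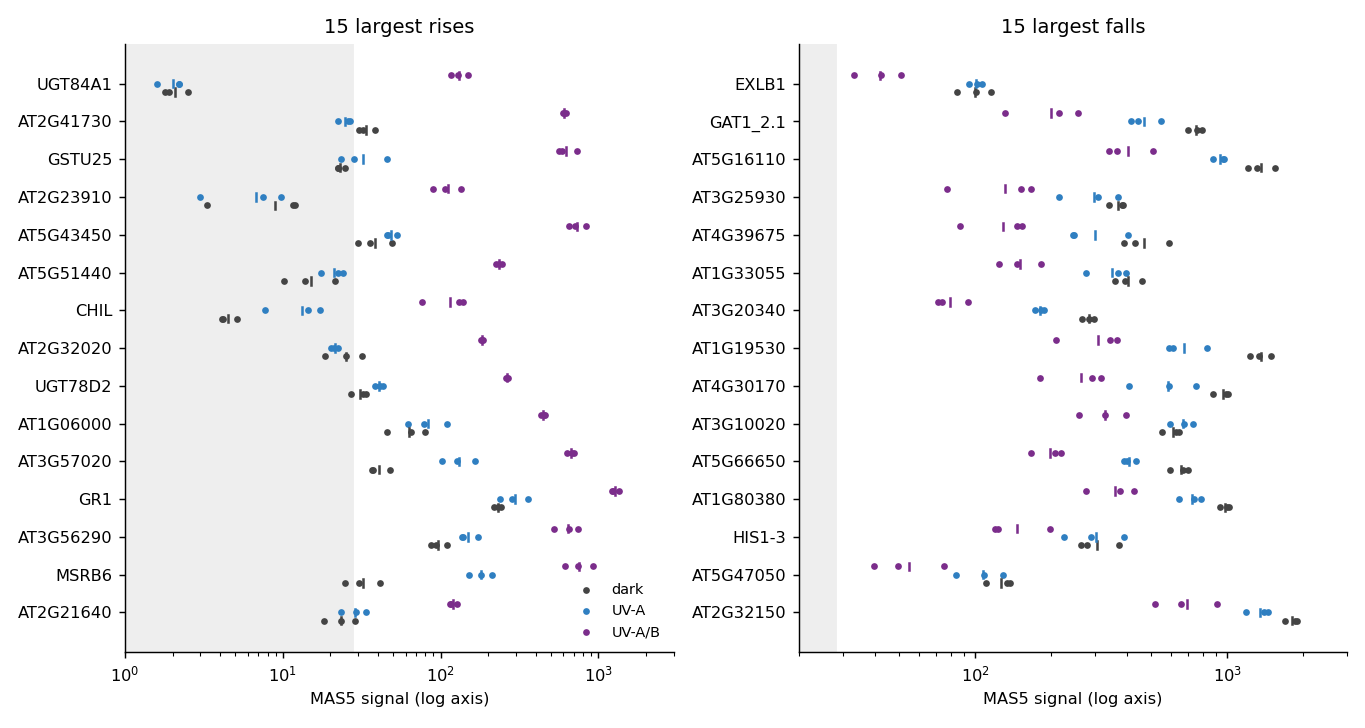
MAS5 signal (log axis) in each of the 3 dark, 3 UV-A and 3 UV-A/B arrays at 4 h (points; short bars are group means) for the 15 largest rises and the 15 largest falls; shading marks signals up to 28, the highest 40th percentile of the 6 UV arrays. UV-A/B points lie to the right of all others for the rises, and dark and UV-A points lie to the right of UV-A/B for the falls.

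Falls were smaller than rises. The 15 largest under the conditions set for the rises ran from -1.26 to -0.99, whereas the lowest of all called probe sets reached -2.26. The 15 led with EXLB1, an expansin-like protein of the cell wall. EXLB1 gave 42.4, 33.1 and 50.7 after UV-A/B against 106.9, 94.3 and 101.7 after UV-A and 115.2, 85.0 and 100.9 in darkness. Its UV-A arrays lay within the range of the dark arrays, and the difference was -1.26 ± 0.20 (SE, adjusted p = 1.39e-05). GAT1_2.1, named as a glutamine amidotransferase, gave 214.6, 131.8 and 256.7 against 545.4, 413.7 and 442.0 (-1.26 ± 0.21, adjusted p = 3.27e-05), with 793.1, 697.7 and 757.3 in darkness. Here the UV-A arrays lay between the other groups.

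AT5G16110 gave 364.4, 338.4 and 507.5 after UV-A/B, 960.7, 874.8 and 975.9 after UV-A and 1213.4, 1309.2 and 1553.4 in darkness, a difference of -1.24 ± 0.12 (SE, adjusted p = 3.36e-10). AT1G19530 gave 341.8, 210.3 and 367.3 against 829.3, 607.2 and 588.0, and 1489.2, 1237.3 and 1342.7 in darkness (-1.16 ± 0.15, adjusted p = 3.16e-07). Both genes showed 3 separate levels, with darkness highest and UV-A/B lowest. The other falls named by locus, AT3G25930, AT4G39675, AT1G33055, AT3G20340, AT4G30170, AT5G66650, AT3G10020, AT1G80380, AT2G32150 and AT5G47050, differed by -1.21 to -0.99. HIS1-3, a linker histone, gave 198.3, 122.8 and 120.1 against 389.5, 226.2 and 288.2 (-1.03, adjusted p = 0.0185), a call lost without UV-A/B replicate 2 or 3 or UV-A replicate 1 (adjusted p 0.0823 to 0.133). The call of AT5G47050 (adjusted p = 0.0202) was lost without UV-A/B replicate 1 or 3 or UV-A replicate 2 or 3 (adjusted p 0.0572 to 0.125). In the fit on the 6 arrays alone these 2 falls and also AT3G25930 and AT4G30170 lost their calls (adjusted p = 0.075 and 0.0579 for the latter pair). Replicate 2 was the lowest UV-A/B array for 11 of the 15 falls, and the lowest UV-A array and the lowest dark array for 12 each.

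Genes of leucine breakdown fell together. Of 4 tested genes of branched-chain amino acid breakdown 3 fell (against 3.98% of all probe sets) and none rose, with a median of -0.82. MCCA, the biotin-carrying subunit of methylcrotonyl-CoA carboxylase, gave 340.6, 254.4 and 427.5 after UV-A/B, 657.4, 648.7 and 571.9 after UV-A, and 921.6, 881.4 and 870.0 in darkness. MCCB, the other subunit of that enzyme, gave 369.1, 357.4 and 413.7, then 703.2, 729.6 and 589.3, then 1015.0, 942.6 and 887.3. IVD, isovaleryl-CoA dehydrogenase, the step before it, gave 430.5, 351.3 and 439.2, then 798.5, 665.1 and 680.9, then 911.1, 909.9 and 802.2. In all 3 genes no UV-A/B array reached a UV-A array and no UV-A array reached a dark one. The differences of MCCA, MCCB and IVD were -0.90 ± 0.13, -0.82 ± 0.08 and -0.81 ± 0.09 (SE, adjusted p = 1.27e-06, 6.94e-10 and 2.68e-08). AT5G09300, the remaining member, had low signals of 26.6 to 49.7 and 19.3 to 32.4 and a difference of 0.30 (-0.27 to 0.88).

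Autophagy genes, which break down cell contents during starvation, fell in 3 of 11 tested cases (against 3.98% of all probe sets) with a median of -0.14. ATG8F, which coats the growing autophagosome, gave 1014.3, 850.3 and 960.9 against 1383.8, 1212.3 and 1462.0 (-0.52 ± 0.09, adjusted p = 9.83e-05, and 0.064 in the fit on the 6 arrays alone), with 1573.3, 1687.3 and 1622.0 in darkness. APG8H and ATG8C fell by 0.43 and 0.31 on the log2 scale (adjusted p = 0.0266 and 0.0436). Both calls were lost without UV-A/B replicate 2 or UV-A replicate 1 or 3 (adjusted p 0.113 to 0.425 and 0.141 to 0.259), and without UV-A/B replicate 2 the difference of APG8H was -0.18. In the fit on the 6 arrays alone both calls were lost too (adjusted p = 0.385 and 0.294). That of ATG8C was also lost without the filter and without the trend (0.0531 and 0.0544). ATG8B differed by 0.31 in the other direction (0.07 to 0.55, adjusted p = 0.108). ASPGB1, an asparaginase, was chosen after its values were seen and gave 25.6, 51.3 and 50.0 against 83.5, 101.2 and 106.3 (-1.24, adjusted p = 0.0414), a call lost without UV-A/B replicate 1 or any 1 UV-A array (adjusted p 0.0627 to 0.246).

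Beta-glucosidases, which release sugars from stored glycosides, were called lower after UV-A/B than after UV-A in 4 of 11 tested cases (against 3.98% of all probe sets). None was called higher, and the median was -0.18. BGLU16 gave 539.7, 388.0 and 535.3 against 802.9, 611.0 and 745.1 (-0.57 ± 0.11, adjusted p = 0.000192, and 0.134 in the fit on the 6 arrays alone). BGLU46 and BGLU45, which act on the glucosides of lignin precursors, differed by -0.76 and -0.77 (adjusted p = 0.0129 and 0.0154), and BGLU15 by -0.43 (adjusted p = 0.0133). BGLU45 lay under the 40th percentile in most arrays, and its difference was -0.44 with a pseudocount of 16. Its UV-A/B level was close to darkness (0.05, adjusted p = 0.91). UV-A stood 0.82 above dark (adjusted p = 0.0159, or 0.11 without dark replicate 1), so the fall of BGLU45 is relative to UV-A only. The dark mean of BGLU46 (227.4) lay between the 2 UV groups, and those of BGLU16 and BGLU15 (945.9 and 109.9) lay above both. The call of BGLU15 was lost without UV-A/B replicate 2 (adjusted p = 0.0838), that of BGLU46 without UV-A/B replicate 2 or UV-A replicate 1 (0.0985 to 0.166), and that of BGLU45 without UV-A/B replicate 1 or 2 or UV-A replicate 1 (0.0629 to 0.09). In the fit on the 6 arrays alone BGLU15, BGLU46 and BGLU45 lost their calls too (0.145, 0.112 and 0.159).

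Cell wall loosening genes (expansins and xyloglucan-modifying enzymes) held 2 calls among 22 tested, near the 8.74% of all probe sets. Both were falls (3.98% of all probe sets were called lower), and the median was -0.28. The second of them, EXPA4, gave 154.6, 152.9 and 211.5 against 219.5, 224.4 and 223.4 (-0.38, adjusted p = 0.0351). Its call was kept when UV-A/B replicate 3 was left out and lost without any other single array of the 6 (adjusted p 0.0739 to 0.204). The fit on the 6 arrays alone lost it too (0.273). Auxin response genes held 1 call among 9 tested, near the 8.74% of all probe sets, a fall of WES1, an enzyme that joins auxin to amino acids, with 789.4, 833.5 and 1069.1 against 1095.6, 1092.5 and 1455.7 (-0.44, adjusted p = 0.0487). The call of WES1 was lost without UV-A/B replicate 1 or 2 or UV-A replicate 3 (adjusted p 0.172 to 0.309), and also with quantile normalization, without the filter, without the trend and in the fit on the 6 arrays alone (0.0575 to 0.24). Among clock genes GI (GIGANTEA) gave 200.2, 169.0 and 203.4 against 98.8, 77.0 and 114.4, with 153.2, 143.4 and 152.2 in darkness (0.99 ± 0.17, adjusted p = 4.06e-05). The dark arrays of GI thus lay between the 2 UV groups. AT4G33980 fell by 0.94 on the log2 scale (adjusted p = 0.00212, or 0.202 in the fit on the 6 arrays alone, and by 0.44 with a pseudocount of 16), and COR27 differed by -0.80 (adjusted p = 0.151), both from signals below 30.

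**Figure D3:**
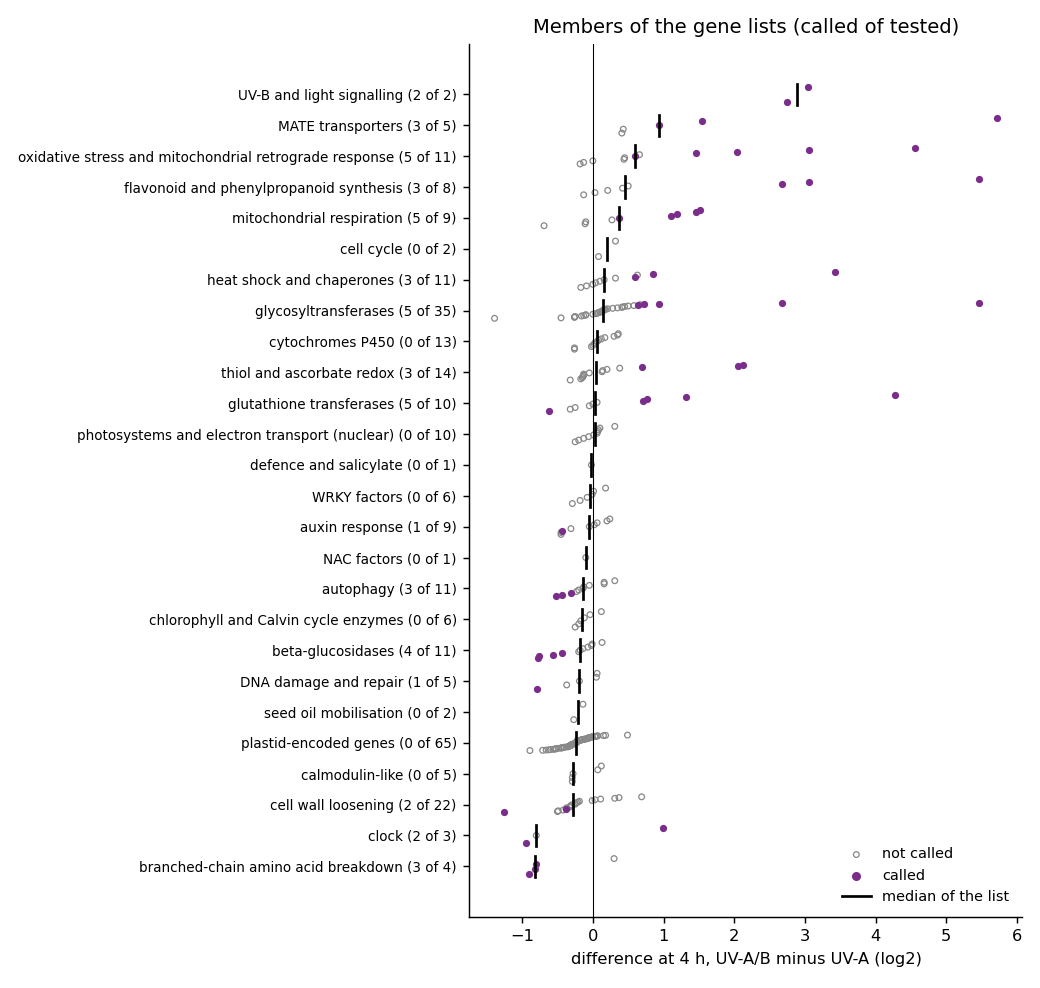
Differences at 4 h (log2, horizontal axis) of the tested members of each gene list, with called members filled, others open, and a black bar at the median; the counts give called of tested. Called members lie to the right of 0 for the detoxification, oxidative stress and respiration lists apart from GSTF4, and to the left for leucine breakdown, autophagy and beta-glucosidases.

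Photosynthesis genes were not called between the UV groups. None of 10 nuclear photosystem and electron transport genes (median 0.03, 95% intervals of single genes within -0.72 to 0.75), none of 6 chlorophyll and Calvin cycle genes (median -0.15, within -1.07 to 0.66) and none of 65 plastid-encoded genes (median -0.24, within -2.18 to 1.17) passed the test. PSAE-1, a subunit of photosystem I, gave 891.5 ± 268.8 after UV-A/B and 881.0 ± 229.4 after UV-A (SD, n = 3), against 187.0 ± 37.3 in darkness. LHCB4.1, an antenna protein of photosystem II, gave 1041.1 ± 555.5, 911.3 ± 158.9 and 456.0 ± 84.2. Its spread among UV-A/B arrays was more than that of either other group.

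DNA damage and repair genes were sparsely covered, with 5 tested and 1 call, against 8.74% of all probe sets called. CHR24, a chromatin remodeller related to a repair helicase, gave 18.8, 9.3 and 11.6 against 29.1, 28.2 and 14.2, overlapping groups of low signal (-0.79, adjusted p = 0.0402). With a pseudocount of 16 that difference was -0.44 and not called (adjusted p = 0.0523), and the call was also lost without UV-A/B replicate 2 or 3 or UV-A replicate 1 or 2 (adjusted p 0.113 to 0.247). Leaving out the filter and fitting the 6 arrays alone lost it too (0.0589 and 0.364). RAD4, of nucleotide excision repair, differed by -0.37 (-0.70 to -0.04, adjusted p = 0.172), RAD51B, of recombination, by 0.05 (-0.31 to 0.41), AT5G28740 by 0.06 and AT4G22960 by -0.19. Further lists with no call were those of WRKY factors (6 tested), calmodulin-like proteins (5), seed oil mobilisation (2), the cell cycle (2), NAC factors (1), and defence and salicylate (1, EIN3, with -0.02 and an interval of -0.21 to 0.17). No member of the jasmonate and ethylene response factor lists was tested. In seed oil mobilisation SDP1, a lipase, differed by -0.27 (adjusted p = 0.0707, and 0.0208 with the replicate number as a block or 0.00976 without UV-A/B replicate 3), and ICL, isocitrate lyase of the glyoxylate cycle, by -0.14 (adjusted p = 0.839). In the cell cycle list HBT differed by 0.32 and PRL by 0.08, and the single NAC gene, NAC014, by -0.10. The calmodulin-like genes CML41, CML42, CML43, CML23 and CML30 differed by -0.29 to 0.12.

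Darkness gives the level from which both pulses departed. UV-A/B against dark at 4 h called 22.4% of the probe sets tested, and UV-A against dark 4.70%. These 2 comparisons share the dark arrays, and each shares arrays with the comparison of the pulses, so their values are only set side by side. For all of the 15 rises UV-A/B was called against dark, and for 2 of them, AT3G57020 and MSRB6, UV-A was called too. MSRB6 stood 4.53 above dark after UV-A/B and 2.47 above it after UV-A. AT3G57020 stood 4.02 and 1.65 above dark. GSTU25, by contrast, stood 4.70 and 0.42 above dark, and UGT84A1 differed from dark by 5.43 and -0.03. Among the 15 falls all were called lower than dark after UV-A/B, and 8 after UV-A, of which the calls of AT4G30170, AT1G80380, GAT1_2.1 and AT2G32150 were lost without dark replicate 1 (adjusted p = 0.0646, 0.0728, 0.156 and 0.0979). The medians of the falls were -1.56 after UV-A/B and -0.44 after UV-A. MCCA stood at -1.42 and -0.51 relative to dark, and MCCB at -1.32 and -0.50.

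The levels of the rises in all 8 conditions of the 4 h harvest fell into separate patterns, given here as levels without a test. For 9 of the 15 rises the UV-A/B mean was the highest of the 8 conditions, and for 8 of them each UV-A/B array lay above all 21 arrays of the other conditions. The rises were picked because these same UV-A/B arrays were high, so both counts depend on that choice. The share over all probe sets was not computed. GSTU25, for example, had 627.3 ± 90.9 (SD, n = 3) after UV-A/B and at most 32.4 ± 11.6 elsewhere. NDB2, which is not among the 15, had 194.4 ± 12.7 and at most 70.1 ± 4.35. GR1 had 1266.3 ± 68.3, with continuous far-red light next at 746.8 ± 44.6. For CHIL, UGT78D2, AT1G06000, AT3G57020, AT3G56290 and MSRB6 far-red was highest and blue second, ahead of UV-A/B. UGT78D2 had 461.4 ± 66.6 in far-red, 268.9 ± 28.7 in blue and 263.7 ± 3.96 after UV-A/B, the last 2 closer than their spread. CHIL had 249.8 ± 51.7, 121.9 ± 46.3 and 115.3 ± 33.7, and HYH, which is not among the 15, followed the same order with 158.8 ± 14.8, 105.7 ± 15.6 and 81.2 ± 15.2. Of the 15 falls, picked because the UV-A/B arrays were low, 13 had their lowest mean after UV-A/B. The exceptions were AT4G30170 and GAT1_2.1, which were lowest in far-red light. MCCA and MCCB were second lowest after UV-A/B, at 340.8 ± 86.6 and 380.1 ± 29.7, with blue light lowest at 290.1 and 352.4 and darkness highest.

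**Figure D4:**
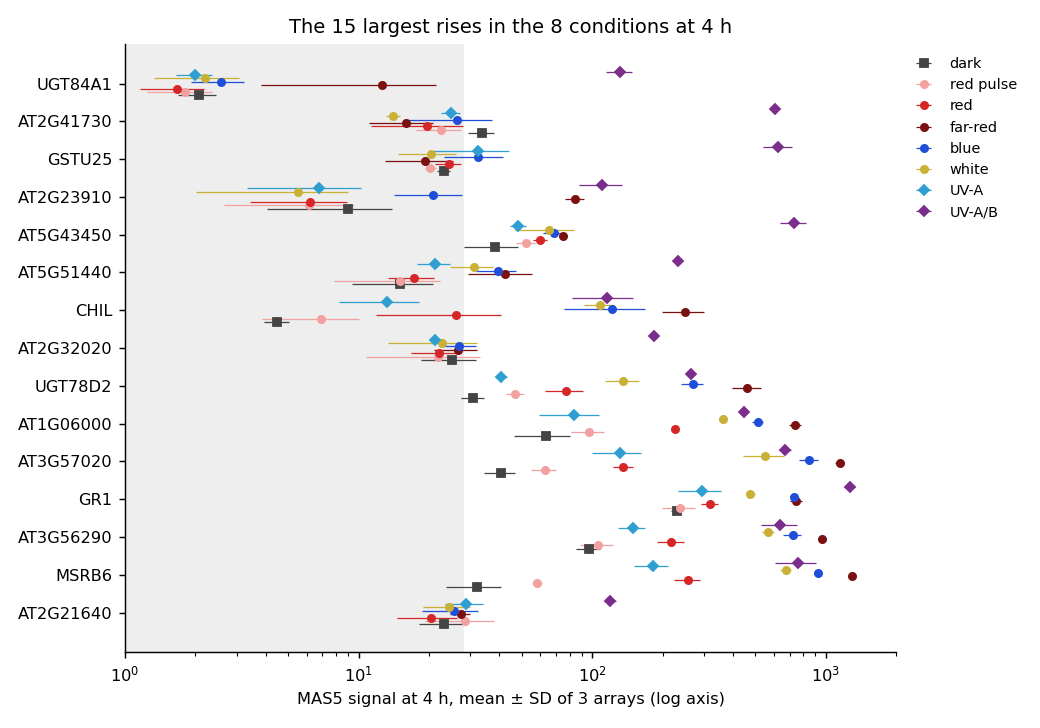
Mean MAS5 signal ± SD of 3 arrays (log axis) of the 15 largest rises in the 8 conditions harvested at 4 h; shading marks signals up to 28. GSTU25, AT2G41730, AT2G32020 and AT2G21640 lie apart from the other conditions after UV-A/B, whereas CHIL, UGT78D2, AT1G06000, AT3G57020, AT3G56290 and MSRB6 are also high in far-red, blue and white light.

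The same comparison 45 min after the pulse called 341 probe sets (2.16%), 218 higher and 123 lower. Without UV-A/B 45 min replicate 3 there were 203 calls (124 higher and 79 lower), without UV-A/B 45 min replicate 2, whose description gives darkness, 234 (160 and 74), and without UV-A 45 min replicate 3, 250 (195 and 55). A fit on the groups of this harvest's contrast alone called 98, and in a fit blocked on replicate number 216 were lower. Of these probe sets 103 were also called at 4 h, which is 30.2% of the 45 min calls and 7.47% of the 4 h calls, with 90 moving the same way at both harvests. None of the 15 rises of 4 h was called at 45 min, where their differences ran from -0.27 to 1.20. GR1, for example, had 293.9, 295.3 and 235.0 after UV-A/B against 309.1, 326.5 and 328.7 after UV-A at 45 min. UGT78D2 had 238.1, 239.3 and 177.4 against 185.0, 185.8 and 155.5, where both pulses were far above the dark arrays (34.5, 36.2 and 27.1). UGT78D2 thus stood at a similar level after both pulses at 45 min and apart at 4 h, where the UV-A mean was 40.8 ± 2.38 against 30.9 ± 3.46 (SD, n = 3) in darkness. AT1G06000 gave the same picture, with means of 349.7 ± 6.55 and 357.6 ± 69.3 (SD, n = 3) at 45 min and 448.3 ± 11.3 and 83.2 ± 23.8 at 4 h.

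Testing the difference between harvests directly (UV-A/B minus UV-A at 4 h, minus the same at 45 min) called 543 probe sets (3.44%), 346 higher and 197 lower. Blocking on replicate number gave 862 calls (512 and 350), and a fit on the groups concerned alone called 214. Without UV-A/B 45 min replicate 3 the lower calls were 104, and without UV-A/B 4 h replicate 2 they were 127. Of the 15 rises 14 were called here, the exception being AT2G21640, and of the 15 falls 8. These genes were picked by their 4 h difference, which is part of this test. Both counts follow in part from that choice and give no support of their own. AT2G04050 gave 5.49, a value set by the pseudocount, since its signals were near the floor in the other 3 groups. The 6 largest among genes with a mean signal of at least 100 in their highest group were UGT84A1 (4.59 ± 0.88 SE), AT2G23910 (4.09), GSTU25 (3.82 ± 0.36), AT5G43450 (3.71 ± 0.26), AT2G41730 (3.36 ± 0.52) and CHIL (3.20 ± 0.62). All were larger at 4 h. In the other 3 groups the means of UGT84A1, AT2G23910 and CHIL were at most 6.6, 22.3 and 13.2. The sizes of these differences thus depend on the pseudocount too. Falls called at both harvests were AT1G33055 (-1.29 at 45 min and -1.20 at 4 h), AT5G66650 (-0.73 and -1.05) and AT3G20340 (-0.61 and -1.18).

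Some genes were called higher at 45 min and were not called, or were called lower, at 4 h, and these examples were chosen after their values were seen. GH3.3, which joins auxin to amino acids, gave 583.3, 651.9 and 859.1 after UV-A/B against 184.0, 148.5 and 162.2 after UV-A at 45 min, and 312.4, 259.8 and 356.0 in darkness. Dark arrays lay between the 2 pulses, and the difference was 2.06 (adjusted p = 1.9e-07). At 4 h the difference was -0.45 (-0.92 to 0.01, adjusted p = 0.27). LBD29, an auxin-induced transcription factor of lateral root formation, gave 156.3, 170.0 and 131.9 against 68.5, 70.9 and 64.9 at 45 min, then 45.1, 32.9 and 34.2 against 84.6, 89.1 and 89.4 at 4 h. It was higher in every UV-A/B array at the first harvest and lower in every one at the second (1.15, adjusted p = 0.00225, and -1.22, adjusted p = 0.000299). GRX480, a glutaredoxin, gave 389.1, 531.1 and 593.0 against 103.4, 145.6 and 142.9 at 45 min (1.94, adjusted p = 1.3e-06) and differed by -0.13 at 4 h. AT5G28630 and AT5G07870 differed by 2.25 and 1.96 at 45 min and by 0.09 and -0.16 at 4 h, and WRKY53, a transcription factor of defence and senescence, by 1.52 and -0.08.

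**Figure D5:**
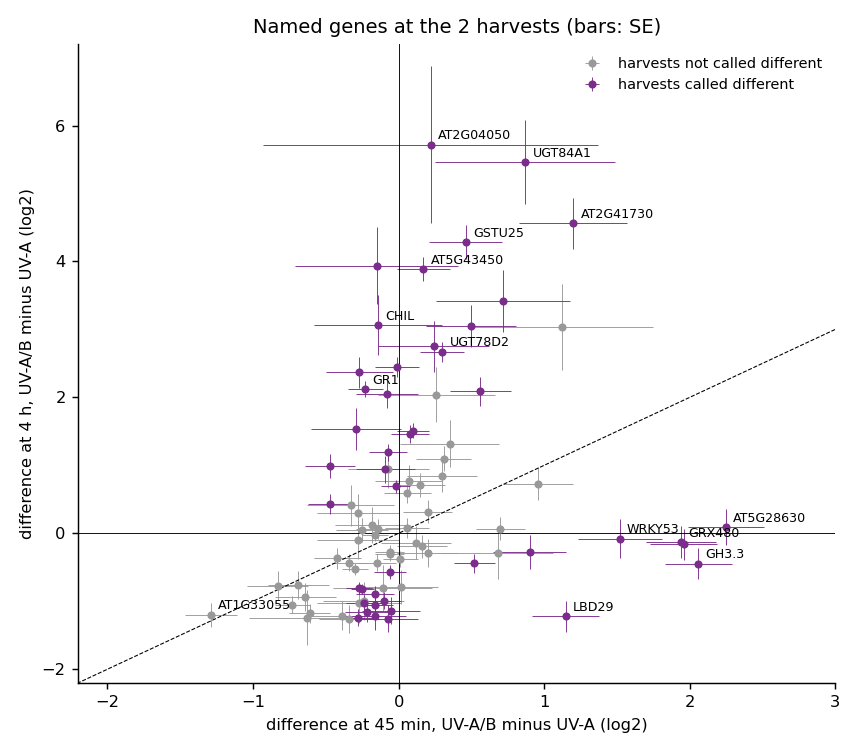
Difference UV-A/B minus UV-A (log2, bars are SE) at 45 min (horizontal axis) and at 4 h (vertical axis) for the named genes; the dashed line marks equal differences, and purple points are genes whose harvests were called different. UGT84A1 and GSTU25 lie far above the line, with 0.87 and 0.46 at 45 min, whereas GH3.3, GRX480 and AT5G28630 lie to the right of it near or below 0 at 4 h.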

How the data were processed

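RNA of 48 samples was measured on ATH1 arrays, in 16 groups of 3, and the groups come from the sample titles. The deposited values are signals on a linear intensity scale, 1 per probe set and array. Per the submitters' processing notes they were made with MAS5, whose version is not given in the sources used here. In the deposited table the trimmed mean of the 6 arrays compared was 100, and no detection calls were used. The medians of these arrays lay between 39.1 and 42.8, and their number limits the precision: the median 95% interval reached 0.346 to either side (log2).

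Of 22810 probe sets 64 controls were left out. A probe set was tested where its signal was above the array's 40th percentile on 3 or more arrays, which 15777 did. A gene high in 1 group alone could thus enter the test through the 3 arrays of that group. Values were taken as log2(signal + 1), so that differences of low signals depend on the pseudocount. One fit of 16 group means over 48 arrays was made with limma 3.58.1 (R 4.3.3, lmFit and eBayes with an intensity trend). P-values were adjusted by Benjamini-Hochberg over all probe sets tested and called at an adjusted p under 0.05. The steps were tested on simulated data. Alternatives were a pseudocount of 16, no filter, quantile normalization, no trend, the groups of a contrast alone, the replicate number as a block and each array left out. Leaving out dark replicate 1 was chosen after the data were seen.

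Genes come from the platform annotation, with symbols updated through RefSeq: 13513 probe sets had 1 gene, 503 several and 8730 none listed. Where a gene had several probe sets, the brightest over all arrays was named. Named genes are the 15 largest rises and falls among called genes without overlap and with a mean signal of at least 100, up to 4 called members of each of 28 gene lists (all members of lists with 5 or fewer), and the 6 largest differences between harvests. The comparison, the genes and the lists were chosen with earlier results of these data known, and 2 lists were made after values were seen. Same-numbered UV-A/B and UV-A arrays deviated together from their group means (r = 0.218, 0.488 and 0.441 at 4 h, and 0.311, 0.135 and 0.39 at 45 min), so the numbers were taken to pair the arrays. The main fit did not use this pairing, so its counts and adjusted p-values leave it out. With the replicate number as a block 1913 probe sets were called at 4 h in place of 1379.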

Additional observations from a re-analysis of the deposited data

Results flagged for a closer look

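For 44 named genes the difference UV-A/B minus UV-A at 4 h departed from the same difference at 45 min by the test of that departure (limma, adjusted p under 0.05). The values that follow are log2 differences at 4 h minus those at 45 min, with 3 arrays in each of the 4 groups. Many of these genes were picked by their 4 h difference, which is part of this test, and some for the departure itself. Their number therefore gives no support.

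Larger at 4 h were the flavonoid and light signalling genes UGT84A1 (4.59), CHIL (3.20), HYH (2.50) and UGT78D2 (2.36). Signals of UGT84A1 and CHIL were low outside UV-A/B at 4 h, so the sizes of their differences depend on the pseudocount. The detoxification genes GSTU25 (3.82), AT2G04070 (1.83), UGT87A2 (1.02) and AT1G66760 (0.90) departed the same way, as did AT2G04050 (5.49, with an adjusted p of 0.049 and signals near the floor outside UV-A/B at 4 h). Redox, respiration and stress genes were AT2G41730 (3.36), AT5G51440 (2.69), AT2G32020 (2.55), GR1 (2.35), MSRB6 (2.13), SDH2-1 (1.41), NDB2 (1.38), SDH1-1 (1.26) and ATMDAR2 (0.71). Genes named by locus were AT2G23910 (4.09, with low signals outside UV-A/B at 4 h), AT5G43450 (3.71), AT3G57020 (2.64), AT1G06000 (2.47) and AT3G56290 (1.52). The clock gene GI gave 1.46.

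Lower at 4 h than at 45 min were the leucine breakdown genes IVD (-0.54), MCCB (-0.57) and MCCA (-0.74), with BGLU16 (-0.51) and EXLB1 (-1.19). Falls named by locus were AT1G80380 (-0.79), AT3G10020 (-0.88), AT2G32150 (-0.89), AT1G19530 (-0.94), AT5G16110 (-0.95), AT3G25930 (-1.05) and AT4G30170 (-1.10). The genes that had been higher after UV-A/B at 45 min were the auxin-related WES1 (-0.95), LBD29 (-2.37) and GH3.3 (-2.51), the calcium-binding CML23 (-1.19), WRKY53 (-1.59), GRX480 (-2.07), AT5G07870 (-2.12) and AT5G28630 (-2.16).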

How the results depend on the processing

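Over 12 alternatives the 88 named genes gave 1056 values for UV-A/B against UV-A at 4 h. Of these 969 kept their side of the threshold, 84 kept the direction but lost the call, and 3 gained a call. No value called in either fit changed direction. The direction of values called in neither fit was not counted. Of 64 called genes 23 lost the call somewhere. Fits on the groups of a contrast alone called 472 probe sets at 4 h in place of 1379, 98 at 45 min in place of 341, and 214 for the difference between harvests in place of 543; such fits hold fewer arrays and so fewer degrees of freedom. Leaving out single arrays gave 1012 to 1343 calls at 4 h, 203 to 341 at 45 min (203 without UV-A/B 45 min replicate 3) and 377 to 569 between harvests. With the replicate number as a block, which follows the pairing of the arrays, 1913 probe sets were called at 4 h, among them all 1379 called without it, 507 at 45 min and 862 between harvests. The block changed no other call of a named gene in UV-A/B against UV-A at 4 h than those of SDP1 and AT1G66760. Differences of genes near the floor shrank with a pseudocount of 16, by its construction. The cause of the other changes was not tested. Signals near the background carry no detection call, so that low levels have no bound.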
